A study of Drosophila melanogaster with 2 samples.

Results

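The cytosolic ribosomal protein genes of Drosophila melanogaster were examined as targets of the transcription factor Mio, the product of the gene Mondo. They were chosen by symbol alone, as protein-coding genes named RpL or RpS with a number and optional letters (the P0, P1 and P2 stalk proteins included), which gave 85 of 13981 annotated protein-coding genes. Of these, 48 encode proteins of the large subunit and 37 proteins of the small subunit. Mio was mapped by chromatin immunoprecipitation sequencing (ChIP-seq) in whole wandering larvae of the third instar, with males and females pooled, of the transgenic strain Mio-GFP. The animals stably express Mio with green fluorescent protein (eGFP) at its C-terminus, the chromatin was sheared by sonication, and an anti-GFP antibody was used for the precipitation. The samples formed 1 group of 2 biological replicates, which carry the numbers 5 and 1, with no second condition or untagged group among the samples. The transgenic fusion is the protein that was measured, and a whole larva mixes all tissues, so no binding can be assigned to a cell type.

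Most ribosomal proteins are needed in every growing cell, and in flies the loss of 1 copy of many of these genes gives the Minute phenotype of slow growth and thin bristles. Their promoters form a class of their own: many start transcription at a TCT initiator, a pyrimidine-rich sequence used in place of the common initiator, and the factors DREF, M1BP and TRF2 are known to act at such promoters. Mondo is a transcription factor of the helix-loop-helix leucine zipper class that pairs with Mlx (bigmax in the fly), binds E-box-like sequences, and is known for the transcriptional response to dietary sugar in the larval fat body and gut.

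Mio was recorded at 34 of the 85 ribosomal protein promoters, against 6.17% of all protein-coding genes. The share was 40% (95% Wilson interval 30.2 to 50.6%, which covers counting error over genes only). A promoter was called bound when the summit of a peak in the deposited optimal list, 1146 peaks that the authors derived from both replicates, lay within 500 bp of an annotated start of the gene. The bound genes were spread over both subunits, with 20 of 48 large-subunit genes (41.7%, 28.8 to 55.7%) and 14 of 37 small-subunit genes (37.8%, 24.1 to 53.9%). These intervals overlap almost wholly. In the pooled relaxed list, which holds 28423 peaks and reaches into background, 77 of the 85 genes had a promoter peak, against 47.5% of all genes. The members were chosen with earlier results of these data known, so the counts are descriptions and carry no test.

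The bound ribosomal protein promoters differed from the other bound promoters in where the summit lay. To show the sequence at such summits, 4 strongly bound promoters are printed here, 5′ to 3′ on the strand of the gene, from 130 bases before the annotated start nearest the summit to 20 bases from it. Distances count from that start as 0, and negative distances are upstream. Capitals mark matches to TATCGATA (the DRE, bound by DREF), CACGTG (the E-box), TATAAA (the TATA box), each on either strand, or CTTTC or CTTTT beginning within 5 bp of the start on the gene's strand (the core of the TCT initiator). The letters come from the NCBI Release 6 genome (dm6), and the promoters were picked after their values had been seen.
RpS27 (FBgn0039300), chr3R:25247495-25247644, minus strand: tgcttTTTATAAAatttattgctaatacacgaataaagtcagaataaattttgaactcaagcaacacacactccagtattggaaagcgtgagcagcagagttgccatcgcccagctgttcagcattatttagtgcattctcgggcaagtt
RpL28 (FBgn0035422), chr3L:3222941-3223090, minus strand: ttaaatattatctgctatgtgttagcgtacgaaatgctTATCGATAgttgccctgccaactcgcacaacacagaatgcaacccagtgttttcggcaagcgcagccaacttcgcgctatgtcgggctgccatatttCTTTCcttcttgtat
RpL24 (FBgn0032518), chr2L:13395112-13395261, minus strand: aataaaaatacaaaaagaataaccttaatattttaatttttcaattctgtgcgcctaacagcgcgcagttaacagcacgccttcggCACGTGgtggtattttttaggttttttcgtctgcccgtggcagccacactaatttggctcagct
RpS25 (FBgn0086472), chr3R:11216268-11216417, minus strand: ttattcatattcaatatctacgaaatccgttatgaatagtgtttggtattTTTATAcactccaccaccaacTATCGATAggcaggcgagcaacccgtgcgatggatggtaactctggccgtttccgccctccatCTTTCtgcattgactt
In RpS27 the summit lay 2 bp downstream of this start, and the capitals are 2 overlapping TATA matches that begin at -125 and -123. In RpL28 the summit lay at -51, between a DRE that begins at -92 and a TCT core at 5. In RpL24 it lay at -15, downstream of an E-box at -44. In RpS25 it lay at -29, between a DRE at -59 and a TCT core at 4. RpS25 also had a TATA match at -80. RpL28 and RpS25 thus shared a DRE and a TCT core, which the windows of RpS27 and RpL24 did not hold. At its canonical start, used for the sequence counts below and not the start printed here, RpL24 did have a TCT core.

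RpS27, a small-subunit protein, carried the strongest signal of all 85 genes. Its optimal signal value was 241 (rank 93 of 1146), and its peak had a signal of 118 in replicate 5 (rank 130) and 121 in replicate 1 (rank 62). The signal value is the authors' own per-peak number, on a scale the sources used here do not give, and it is used only within a list. RpL7, a large-subunit protein, came next with an optimal signal of 223 (rank 104), 107 in replicate 5 and 114.6 in replicate 1. Both were high in both replicates.

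Among large-subunit genes, the 8 with the highest optimal signal were RpL7, RpL34b, RpL28, RpL23A, RpL41, RpL24, RpL32 and RpLP0. RpL34b had an optimal signal of 189, with 109 in replicate 5 and 76.4 in replicate 1. RpL28 had 182, with 98.7 and 78.2 in replicates 5 and 1. Both were near the top of both replicates, with ranks of 160 and 182 for RpL34b and 196 and 169 for RpL28. RpL23A had an optimal signal of 156 and RpL41, which encodes a very short basic protein, 149. RpL24 had 139, RpL32 137, and RpLP0, the base of the ribosomal stalk that elongation factors contact, 135. Ranks of these last 5 genes ran from 292 to 482 in replicate 5 and from 145 to 282 in replicate 1, and the widest spread was that of RpL23A, with 482 and 145.

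Among small-subunit genes, RpS25 and RpS21 followed RpS27, with optimal signals of 147 and 146. RpS4 had 112 and RpS12 106; RpS12 is known in the fly for its part in the elimination of Minute cells by their neighbours. RpS10b had 100.2, RpS23 99.9 and RpS16 96.4. The replicates lay far apart at a pair of these genes: RpS10b ranked 368 in replicate 5 and 1994 in replicate 1, and RpS23 ranked 327 and 1921. RpS25, by contrast, ranked 240 and 288.

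**Figure D1:**
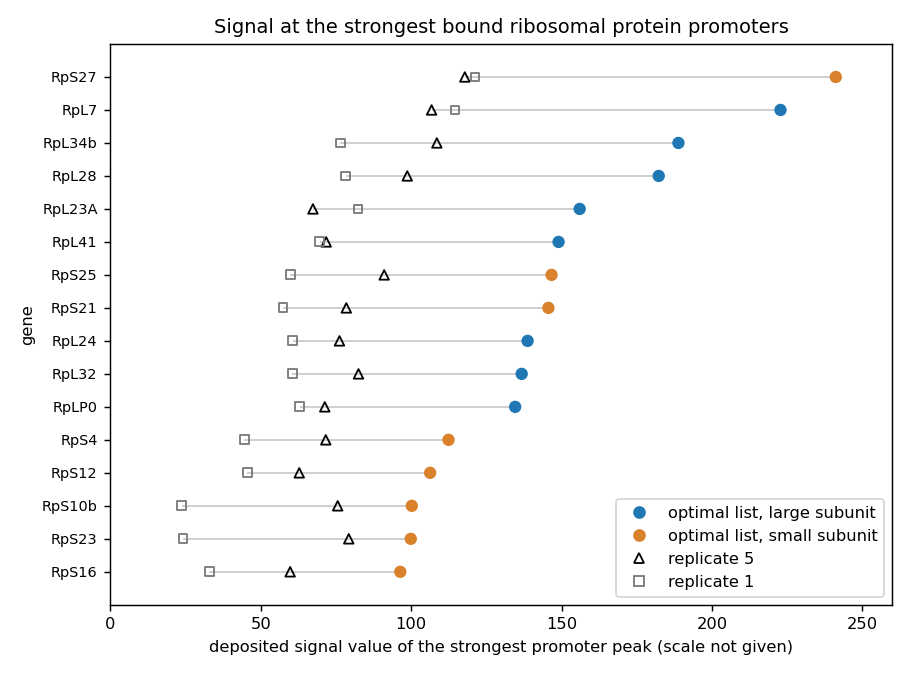
The plot gives the deposited signal value of the strongest promoter peak (horizontal axis, scale not given) for the 8 bound genes of each subunit with the highest optimal signal, as filled circles for the optimal list (blue large subunit, orange small subunit), triangles for replicate 5 and squares for replicate 1. RpS27 at 241 and RpL7 at 223 lead, the lowest is RpS16 at 96.4, and signals of different lists are not on 1 scale.

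Over the 34 bound genes the optimal signal had a median of 108 and a range of 75.9 to 241. The other 817 bound nuclear genes, which share 589 peaks, had a median of 97.6. Of the ribosomal protein genes 22 (64.7%) were in the stronger part of the optimal list, its first 573 peaks, against 49.7% of the other bound genes. By subunit the median was 119 for large-subunit genes, 15 of 20 (75%) in the first 573, and 98.1 for small-subunit genes, 7 of 14 (50%). The ribosomal protein peaks were thus of middle to high strength in this list and did not head it, since the strongest nuclear signal was 769.9.

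The optimal list ended close to several members. Just inside it were RpL12 with a signal of 77.3 and RpS2 with 75.9. Just outside it, by the pooled relaxed list, were RpL10 with 72.0 (rank 1197), RpL9 with 69.9 (rank 1264) and RpL35A with 69.4 (rank 1281). No gap in signal separated bound from unbound genes: 20 of the 85 genes (23.5%) had pooled ranks from 1147 to 2292, the next stretch of the same length as the optimal list, against 5.41% of all genes. Among these was RpL11, picked after its values were seen, with a pooled signal of 67.9 at -135 bp. RpS6, the target of S6 kinase and picked likewise, was listed with a pooled signal of 54.7, but that summit lay at -449 bp from RpS6 and at -100 bp from its neighbour bys.

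A further 8 genes had no promoter peak in the pooled relaxed list: RpL14, RpL21, RpL36A, RpS10a, RpS15, RpS15Ab, RpS19b and RpS26. Only RpS10a had none in any of the 4 lists (1.18% of the 85), against 36.3% of all protein-coding genes. The absence of a peak says that none was listed there, and the read depth behind the lists is unknown.

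The replicates gave close to the same number of ribosomal protein genes but not wholly the same genes. When each replicate's own 1146 strongest peaks were taken, 32 genes had such a promoter peak in replicate 5 (37.6%, against 6.25% of all genes) and 35 in replicate 1 (41.2%, against 5.64%). Both replicates held 24 of them (28.2%), against 3.45% of all genes. All 24 were in the optimal list. Of the other 10 bound genes, RpL12, RpL19, RpS10b, RpS15Aa, RpS23 and RpS28b reached this level in replicate 5 only, 3 in replicate 1 only, and RpS2 in neither. A further 10 genes outside the optimal list reached it in 1 replicate, 2 of them in replicate 5 and 8 in replicate 1.

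The large and small subunits came out alike in replicate 5, with 19 of 48 (39.6%) and 13 of 37 (35.1%). In replicate 1 the shares were 24 of 48 (50%, 36.4 to 63.6%) and 11 of 37 (29.7%, 17.5 to 45.8%), intervals that overlap. Bound small-subunit genes had a median rank of 518 in replicate 5 and 1013 in replicate 1, whereas bound large-subunit genes had 383 and 372.5. By the median, bound small-subunit genes thus ranked below bound large-subunit genes in both replicates, with the wider gap in replicate 1. No test of it was made, and ranks of all members by subunit were not summarised.

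The 4 genes whose ranks lay farthest apart, by the ratio of the ranks, were RpL3, RpS29, RpL10 and RpS3A. RpL3, a protein near the peptidyl transferase centre, ranked 623 in replicate 5 and 15771 in replicate 1, with signals of 61.2 and 10.6. RpS29 ranked 15918 and 659, with signals of 14.3 and 41.0. RpL10 ranked 5601 and 518, and RpS3A, the only member on chromosome 4, ranked 5493 and 899. All 4 stayed outside the optimal list. RpL14 had a rank of 750 in replicate 1 and no promoter peak in replicate 5 or in the pooled list. Across the 69 genes with a peak in both replicates the Spearman correlation of the signals was 0.61, against 0.58 across 4119 other nuclear genes. It was 0.49 over the 34 bound genes and -0.12 over the 35 unbound ones. Bound status was itself derived from both replicates, so the split shapes these values by construction and nothing is concluded from their contrast. Genes within a library are not independent, and both lists were called against the same control.

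**Figure D2:**
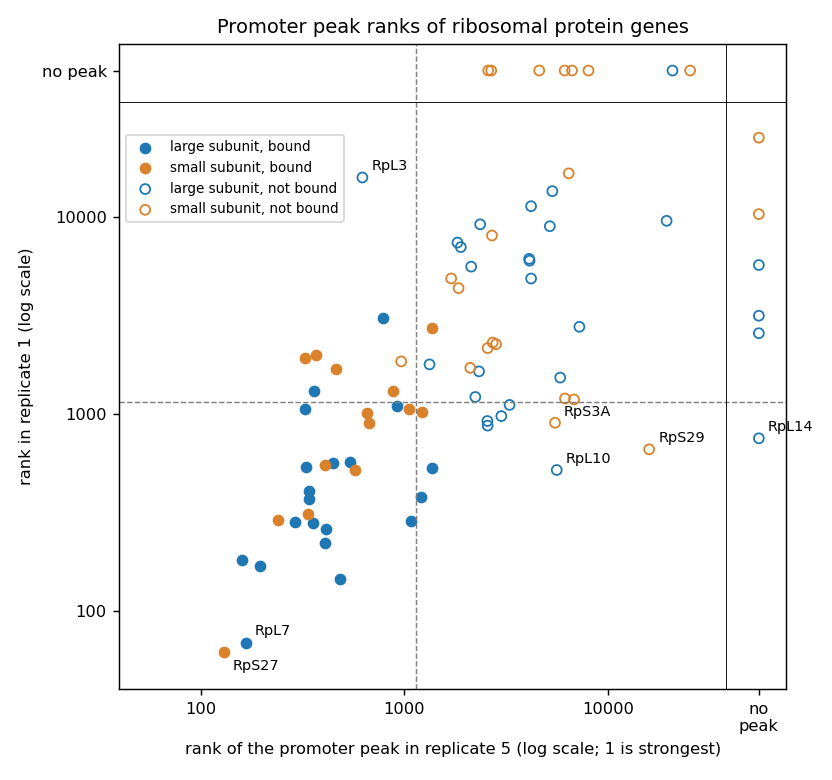
Each point is a ribosomal protein gene, placed by the rank of its strongest promoter peak in replicate 5 (horizontal, log scale) and replicate 1 (vertical, log scale); filled points are bound in the optimal list, dashed lines mark rank 1146, and outer strips hold genes with no peak in that replicate (RpS10a and RpL10Aa, with none in either, are not drawn). The 24 genes in the lower left are strong in both replicates, and RpL3 and RpS29 lie far off the diagonal.

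The replicate lists differed in their coverage of chromosome X, with 6712 peaks there in replicate 5 and 3749 in replicate 1. Of the 13 members on X, 5 were bound (38.5%), against 4.69% of all X genes, and 29 of 72 members on the autosomes (40.3%), against 6.37% of all autosomal genes. Of these 13 genes, 6 were among the strongest peaks of replicate 5 and 4 among those of replicate 1, against 4.96% and 3.73% of all X genes. The Spearman correlation of the replicate signals was -0.22 over the 11 X members with a peak in both replicates and 0.67 over the 58 autosomal ones. Of the 6 bound genes that were strong in replicate 5 only, RpS10b, RpS15Aa and RpS28b lie on X. RpL17, bound and also on X, went the other way, with ranks of 1082 in replicate 5 and 285 in replicate 1. Of the 11 X members, 6 ranked better in replicate 5 and 5 in replicate 1, against 31 and 27 of the autosomal ones. The part of the uneven X coverage in the ranks of X members was not tested.

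Summits at bound ribosomal protein genes lay close to the start site, and mostly just upstream of it. Upstream of the nearest start lay 25 of the 34 (73.5%), against 88.1% for the other bound nuclear genes. Their median position was -17 bp (quartiles -39.5 and 0.75), whereas summits at the other 817 bound nuclear genes had a median of -124 bp (quartiles -208 and -53). Within 50 bp of a start lay 26 of 34 summits (76.5%), against 17.3% for the other bound genes, and within 100 bp lay 33 of 34 (97.1%), against 37.1%. The extremes were RpS20 at -206 and RpL26 at 97. Of the 34 summits, 20 fell between genes, 12 in a 5' untranslated region and 2 in an intron.

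The replicate lists were also read at the genes bound in the optimal list, a choice of genes that itself came from both replicates. At the 34 bound genes the replicate 5 peaks had a median position of -15 bp, with 24 (70.6%) within 50 bp, against -128 bp and 18% for other bound genes. In replicate 1 it was -21 bp, with 27 (79.4%) within 50 bp, against -126.5 bp and 19.5%. Summits of the same gene moved by a median of 14.5 bp between replicates, less than the distance that separated the medians of the gene groups. The other bound genes moved by a median of 35.0 bp. Without that choice of genes, 77 members had a replicate 5 promoter peak, 58.4% of them within 50 bp, against 21.2% for other nuclear genes. In replicate 1 it was 70.7% of 75 members, against 18.6%.

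Ribosomal protein genes have more annotated starts than most, which makes a nearby start easier to find. Of the bound members 22 of 34 (64.7%) had several starts, against 49.8% of all bound genes. Among genes with a single start, 12 bound members had a median position of -33.5 bp with 9 (75%) within 50 bp, and 415 other bound genes had -132 bp with 14.7%. Summits were thus mostly close to the start in members with a single start too. By subunit the median was -27 bp for large-subunit genes, with 13 of 20 within 50 bp, and -11.5 bp for small-subunit genes, with 13 of 14.

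The members outside the optimal list also had pooled summits mostly near the start, at a lower share than the 76.5% of bound members. Their peaks all ranked below the optimal list, so their lower signal was given by the split. Of the 51 unbound members, 43 had a pooled relaxed promoter peak, with a median signal of 46.2 and a median position of -28 bp, and 24 of these (55.8%) lay within 50 bp of a start. Across 6557 other nuclear genes with a pooled relaxed promoter peak, bound ones included, the median signal was 32.1. Their median position was -85 bp, and 21.3% lay within 50 bp.

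**Figure D3:**
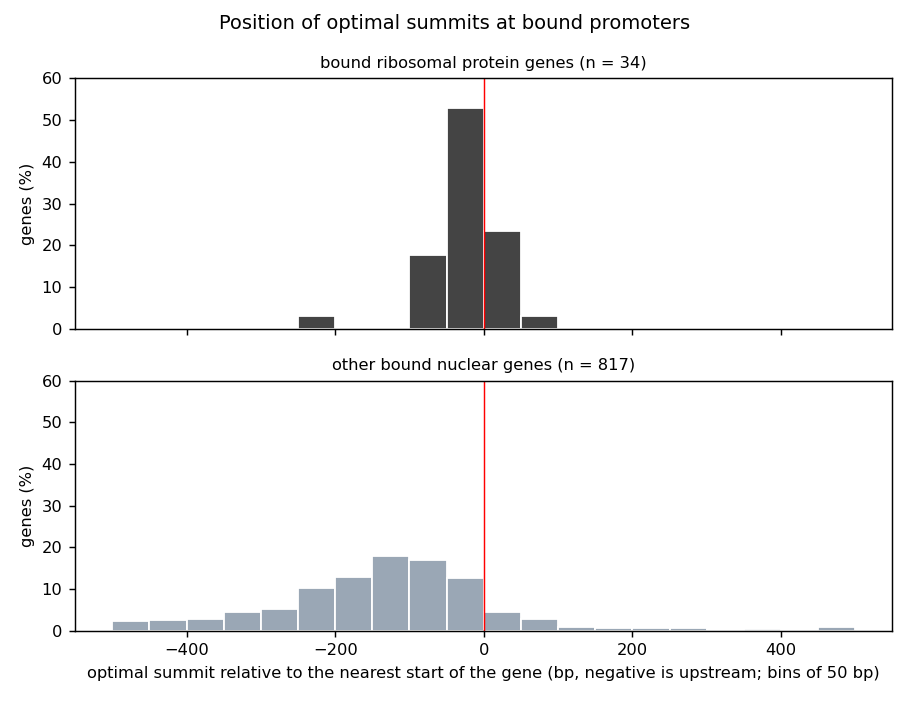
The histograms give the percent of genes (vertical) by the distance from the optimal summit to the nearest start of the gene (horizontal, bp, bins of 50 bp, negative is upstream, red line at the start) for the 34 bound ribosomal protein genes above and the other 817 bound nuclear genes below. The upper histogram is narrow with a median of -17 bp and the lower is broad with a median of -124 bp.

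Many of these genes stand back to back with a neighbour, so a peak can belong to either promoter. The peak was shared with the promoter of another protein-coding gene for 20 of the 34 (58.8%), close to the 55.9% of other bound genes, and in 19 of the 20 the neighbour was on the opposite strand. The summit was nearer the ribosomal protein gene in 18, nearer the neighbour in 1 (RpS20, whose neighbour is CG17271), and equally near in 1 (RpS27A, which encodes a ubiquitin fusion, and Ip259). The median summit position was -29 bp from the ribosomal protein gene and -269 bp from the neighbour.

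Single pairs show the geometry. At RpL28 and eIF1, which encodes a factor in start codon choice, the summit lay at -51 bp from RpL28 and -330 bp from eIF1. At RpL36 and Mybbp1A it lay at 13 and -303 bp. At RpL13 and Dref, the gene of the DRE-binding factor, the distances were -8 and -76 bp. At RpL7 and Ripalpha they were 25 and -55 bp. The 14 members with a peak of their own had a median of -8.5 bp, with 11 within 50 bp, so closeness to the start was also present where no neighbour shared the peak. The corresponding 360 other genes had a median of -127 bp with 15.6% within 50 bp.

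Duplicated genes with symbols that differ only by a final a or b formed 8 families. In none were both copies bound, in 4 there was 1 bound copy, and in 4 none. Of the 16 genes in these families 4 were bound (25%), against 30 of the other 69 members (43.5%). RpL34b, RpS10b, RpS15Aa and RpS28b were the bound copies.

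RpL34b and RpL34a showed the widest contrast among pairs in which each copy had a pooled peak. RpL34b had a pooled signal of 189 (rank 145), and RpL34a had 46.2 (rank 3047). In replicate 5 the signals were 109 and 39.5, and in replicate 1 they were 76.4 and 14.3, so the b copy was higher in each replicate. Their promoters are shown to let both sites be compared, with capitals as above.
RpL34b (FBgn0037686), chr3R:9401207-9401356, minus strand: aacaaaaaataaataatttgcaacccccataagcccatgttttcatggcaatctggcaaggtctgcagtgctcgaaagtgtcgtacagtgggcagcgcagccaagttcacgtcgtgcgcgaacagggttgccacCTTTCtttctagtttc
RpL34a (FBgn0039406), chr3R:26059248-26059397, minus strand: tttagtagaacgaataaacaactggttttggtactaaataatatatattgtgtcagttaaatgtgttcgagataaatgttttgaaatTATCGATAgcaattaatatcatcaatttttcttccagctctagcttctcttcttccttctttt
The summit lay at -64 from the start of RpL34b and at -65 from that of RpL34a. RpL34b had a TCT core at 4, and RpL34a had a DRE at -43 and no TCT core within 5 bp of this start. The sequence counts given below use the canonical start and a wider window, where the matches differed. There RpL34b held an E-box and a TATA match and no TCT core, and RpL34a held a DRE and GAGAG. No match says only that these letters are not in this window.

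RpS28b had a pooled signal of 94.7, with 68.5 in replicate 5 and 25.8 in replicate 1. RpS28a had 29.4, with 34.1 and 22.2, and its pooled summit was 331 bp downstream of its start. RpS10b had 100.2 and RpS10a no peak in any list. RpS15Aa had 83.2, and RpS15Ab was listed in replicate 5 only, with a signal of 10.6 at rank 25290. In the families with no bound copy the stronger copies were RpS19a with 69.4, RpS14b with 67.3, RpS5a with 61.1 and RpL10Ab with 57.3. Their partners RpS14a, RpS5b and RpL10Aa had 35.8, 16.4 and 15.2, and RpS19b had no pooled peak; RpS5b and RpS19b are known for expression in the germline. The pairs RpS14a and RpS14b, and RpL34a and RpL34b, differed in pooled signal although every copy had a pooled peak. The RpS14 copies did not differ in replicate 5, with 23.8 for RpS14a and 23.7 for RpS14b. In replicate 1 RpS14b had 30.3 and RpS14a had no promoter peak.

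**Figure D4:**
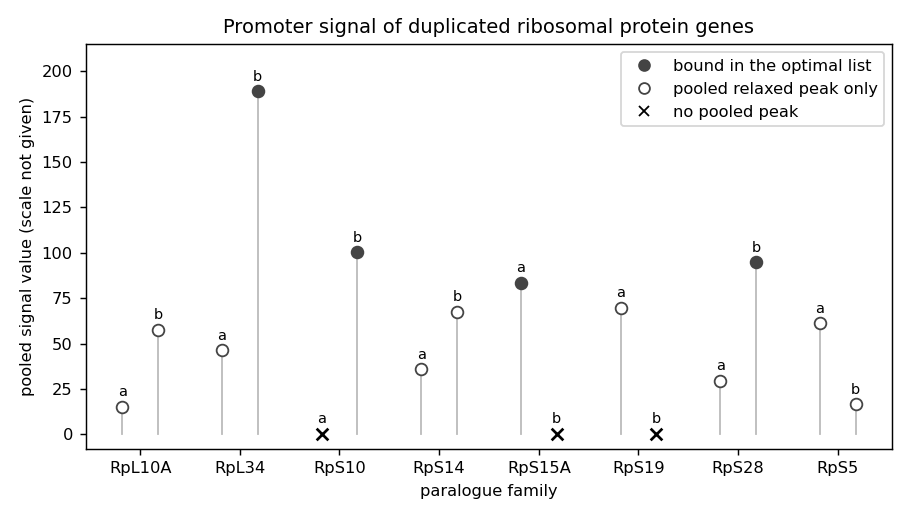
Each stem gives the pooled signal value (vertical, scale not given) of 1 copy of the 8 duplicated families (horizontal), with filled points for copies bound in the optimal list, open points for copies with a pooled relaxed peak only and crosses at the baseline for copies with no pooled peak. RpL34b at 189 stands above RpL34a at 46.2, and no family has a pair of filled points.

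The promoter sequences of the family differed from those of most genes in several of the searched sequences. The TCT core was present at the canonical start of 39 of 85 members (45.9%), against 3.52% of all nuclear genes: 15 of 34 bound (44.1%) and 24 of 51 unbound (47.1%). Within 10 bp of that start it was present in 55 members (64.7%), against 6.8% of all nuclear genes, in 55.9% of bound and 70.6% of unbound members. At any annotated start it was also in 55 members, with 64.7% of bound and of unbound members. The share was 5.13% of all nuclear genes and 10.1% of all bound ones. More starts give more places for a match, and 50.6% of members had several starts, against 26.5% of all nuclear genes. The DRE was searched, like the sequences that follow, on both strands in the 300 bp from 250 bp before to 50 bp after the canonical start. It was found in 25 members (29.4%), against 8.94% of all nuclear genes, and in 32.4% of bound and 27.5% of unbound members. GGTCACAC, the core of motif 1 that M1BP binds, was in 12 members (14.1%), against 7.52% of all, and in 14.7% of bound and 13.7% of unbound members.

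The E-box CACGTG was in 8 members (9.41%), against 4.25% of all nuclear genes and 4.94% of all bound ones. All 8 were large-subunit genes. It was in 4 of 34 bound members (11.8%) and 4 of 51 unbound ones (7.84%), a difference of few genes. GAGAG, the core site of GAGA factor, was less frequent in members (17.6%) than in all genes (30.2%), and TATAAA was about as frequent (48.2% and 45.3%). These windows were all of 1 length, and a match is a description of the letters, not a binding site.

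Summit position was also compared by the presence of a TCT core at any annotated start, a split chosen after the values were seen. The 22 bound members with the core at some start had a median position of -17 bp, with 77.3% within 50 bp, and the 12 with none had -19 bp, with 75%. Other bound genes with the core at some start, 64 in number, had a median of -138.5 bp with 18.8% within 50 bp. The 753 other bound genes with none had -124 bp with 17.1%. With the core judged at the canonical start only, the median was -15 bp in the 15 bound members that had it and -19 bp in the 19 that did not. Summits of bound members were thus mostly near the start in each of these groups.

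**Figure D5:**
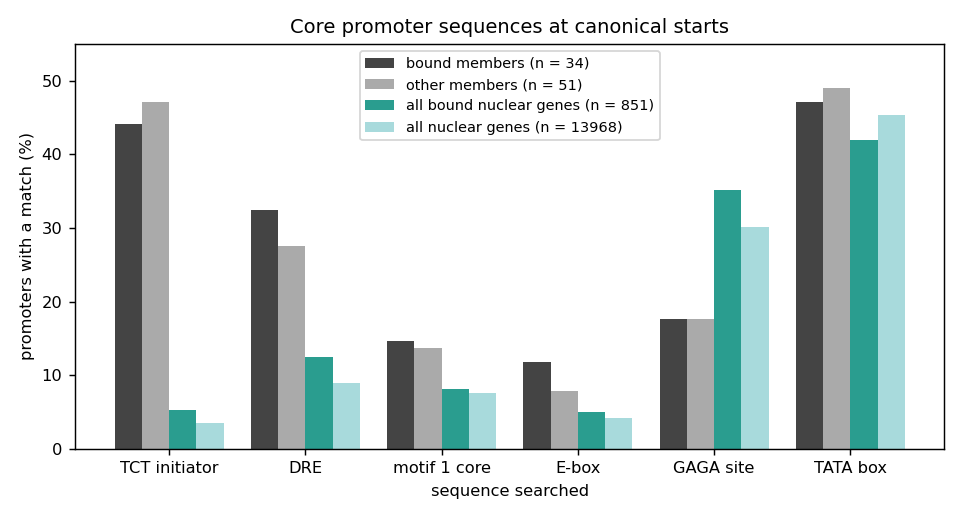
Bars give the percent of promoters (vertical) with a match to each searched sequence (horizontal) for bound ribosomal protein genes, unbound ones, all bound nuclear genes and all nuclear genes. TCT initiators are in 44.1% of bound and 47.1% of unbound members, against 3.52% of all nuclear genes, and DREs in 32.4% and 27.5%, against 8.94%.

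The DNA under the summits was richer in G and C than at other bound promoters. In the 101 bp centred on the summit the median GC content was 50% at the 34 ribosomal protein peaks (quartiles 45.5 and 53.2%), against 36.6% at 569 other promoter peaks. At the 128 other promoter peaks whose summit lay within 50 bp of a start it was 43.6%. Around the canonical start it was 47.5% for bound members, 43.6% for unbound members and 45.5% for other bound genes. Over the wider 300 bp the groups were close, with 38.5% for bound members and 38.0% for all nuclear genes.

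Within 50 bp of the summit, 7 ribosomal protein peaks held a DRE (20.6%), against 3.51% of other promoter peaks, and 5 held the motif 1 core (14.7%), against 1.05%. Of the 34 peaks 2 held CACGTG (5.88%), those of RpL7 and RpL24, against 1.41% of other promoter peaks. GAGAG was in 1 (2.94%), against 14.6%. The counts for CACGTG and GAGAG were small, 2 and 1 of these 34 peaks, against 8 and 83 of the 569 others. The other promoter peaks mostly lay farther from a start and had a lower GC content. The part of this in any of these shares was not tested. The DRE was the most frequent of the searched sequences. Other E-box-like sequences were not searched.

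Several annotated starts were more common in bound members, in 22 of 34 (64.7%), than in unbound ones, in 21 of 51 (41.2%). The share was 26.5% of all nuclear genes. The median gene length was 1436.5 bp in bound members and 1186 bp in unbound ones, both shorter than the 2164.5 bp of all nuclear genes. A small nucleolar RNA gene lay inside 10 of 34 bound members (29.4%) and 18 of 51 unbound ones (35.3%). The share over all genes was not computed, so neither figure can be called high or low. On the larger chromosome arms the bound share of members ran from 7 of 22 on 3R to 8 of 14 on 3L, which are small counts. Of all protein-coding genes, 236 of 3421 on 3R and 164 of 2739 on 3L were bound. RpS3A on chromosome 4 was not bound, nor was any other of the 80 genes there.

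Other genes of protein synthesis were read beside the 6.17% of all protein-coding genes that were bound, and the lists are too short for a share to say much. Of 9 further ribosomal protein genes left out by the naming rule, 2 were bound: Rack1, a scaffold protein of the small subunit, with a signal of 137 at -28 bp, and RpL37-1 with 74.4 at 6 bp. The 5 genes named -like were not bound. Of 7 elongation factor genes 3 were bound, eEF1gamma with 169 at -16 bp, eEF5 with 80.8 at 25 bp and eEF1alpha1 with 75.7 at -67 bp. Summits within 50 bp of the start were thus also present outside the 85 genes, at Rack1, RpL37-1, eEF1gamma and eEF5. Of 17 genes of ribosome assembly and rRNA synthesis 1 was bound, eIF6, which keeps free large subunits from joining, with 438 at -98 bp, which is a share near that background. Of 4 factors reported at ribosomal protein promoters, M1BP and Dref were bound, with 94.3 at -354 bp and 93.0 at -76 bp, the latter at the peak shared with RpL13, whereas Trf2 and Myc were not.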

How the data were processed

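ChIP-seq peak lists of both replicates were used in the dm6 build. Per the deposited text files, each replicate's relaxed list was called on its own alignments and 1 control alignment that both replicates share, a pooled relaxed list on both alignments, and the optimal list was derived from these. The deposited signal value of each peak ranked peaks within a list. The deposited −log10 q-value was read but ranked nothing. The scale of the signal, the aligner, the peak caller, the irreproducible discovery rate (IDR) threshold and the read depth were not given in the sources used here.

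Summits were placed against the starts of protein-coding transcripts (Ensembl release 115, BDGP 6.54), the strongest within 500 bp counting for a gene. The 5 protein-coding genes on unplaced sequences were left out. Assignment was tested on simulated data. Shares carry Wilson intervals at 95%. Sequences came from the Release 6 genome, and the TCT core was also searched within 10 bp of the canonical start and at any annotated start. Software was Python 3.11.15, pandas 2.3.3, numpy 2.4.6 and statsmodels 0.14.6. The members, lists and rules were chosen with earlier results of these data known, and no p-values were computed. The named genes were the 8 strongest bound members of each subunit, families with a bound copy, the 4 with ranks farthest apart as a ratio, and the 3 just inside and 3 just outside the optimal list. One result under this rule is not reported here. Other genes named were chosen after their values were seen. Lists in the dm3 build were not used here, since no dm3 genome or annotation was at hand and coordinates were not converted. One gene of the 18 listed for ribosome assembly and rRNA synthesis matched no annotated symbol.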

Additional observations from a re-analysis of the deposited data

How the results depend on the processing

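The count of bound members ran from 32 to 35 when the reach was 200 or 1000 bp, when a start had to lie under the peak, with each replicate alone, with the strongest pooled peaks, and with the most upstream or the canonical start only. The stronger part of the optimal list, a shorter list by construction, held 22 bound members, 7 of the small subunit, with a median signal of 131 and 15 summits within 50 bp of a start. The median summit position was -26 to -15 bp with 1 replicate left out, -8 bp from the most upstream start, -29 bp from the canonical start and -8.5 bp at unshared peaks, 11 of which were within 50 bp. The -124 bp of other bound genes was measured from the nearest start in the optimal list. At unshared peaks the other genes had -127 bp. Their position under the remaining settings, such as the most upstream or canonical start, was not computed. With any relaxed peak, 69 members (81.2%) had a promoter peak in both replicates. The same held for 667 of 2196 X genes and 3521 of 11749 autosomal genes. Within 50 bp of the summit, a shorter window by construction, 7 bound members held a DRE (11 in the promoter window), 2 an E-box (4), 1 GAGAG (6) and 3 TATAAA (16). The canonical start, unshared peaks and the count within 50 bp were chosen after seeing the data. No family had both copies bound under any of the alternatives run. No paired analysis was possible because there was 1 group. The optimal list has 1 group, 2 replicates and a shared control, so errors of the control are common to both replicates, and peaks and genes are not replicates.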
